A study of Mus musculus with 6 samples.

Results

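The respiratory chain genes described here are 103 rows of a table of 55291 gene symbols, counted in 2 kinds of group 1 lymphocyte sorted from tumours, the type 1 innate lymphoid cell (ILC1) and the natural killer (NK) cell. They were chosen by name: symbols starting with Nduf, Sdha to Sdhd, Uqcr, Cox4 to Cox8, Atp5, mt-Nd, mt-Co, mt-Cyt or mt-Atp. The prefixes took 128 symbols, of which 114 were kept after names of pseudogenes, antisense and retro copies were left out. Another 11 had a mean under 1 CPM (counts scaled to the library size) over the 6 libraries and were left out as well. The 103 genes were 77 nuclear subunits, 13 mitochondrially encoded subunits and 13 assembly or supercomplex factors that carry the same prefixes. All 103 passed the filter on low counts and stood among the 14475 genes tested. Ndufb1-ps, which has a pseudogene suffix in its symbol, falls outside the naming rule, as does Cyc1, which encodes cytochrome c1.

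The respiratory chain sits in the inner mitochondrial membrane. Complex I takes electrons from NADH and complex II from succinate, and both pass them through ubiquinone to complex III, cytochrome c and complex IV, which reduces oxygen. Complexes I, III and IV pump protons, and complex V (ATP synthase) uses the gradient to make ATP. Complex II is encoded wholly in the nucleus, whereas the other complexes combine nuclear subunits with core subunits transcribed from mitochondrial DNA, so that their assembly draws on both genomes. In NK cells and other lymphocytes oxidative phosphorylation is known to support activation and proliferation.

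All cells came from wild-type C57BL/6 mice that carried subcutaneous tumours of MC38, a colon carcinoma line from the same strain, and were taken 14 days after transplantation. ILC1s and NK cells had 3 libraries each. Which surface markers defined the sort gates is not stated in the labels read here. Nor do they tie samples to individual mice, and p-values therefore describe the spread among these libraries, which may be technical. In bulk RNA, fewer cells of a type and less RNA per cell cannot be told apart.

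The libraries held 16931099 to 20224847 counts and differed in ways that the cell type labels do not give. The summed level of 12 macrophage markers was 14019.6 CPM in ILC1 replicate 3 and 169 to 399.8 CPM in the other 5 libraries, and all 12 were highest in ILC1 replicate 3. Among the 10 fibroblast and matrix markers that were tested, 8 were higher in each of NK replicate 3, ILC1 replicate 1 and ILC1 replicate 2 than in each of the other 3 libraries. These 3 libraries are called matrix-rich below. Summed over all 12 matrix markers, the NK libraries held 704, 779 and 1895 CPM and the ILC1 libraries 2460.1, 3089.7 and 6890.5 CPM, where Fn1 alone gave 5888 CPM in ILC1 replicate 3. No macrophage or matrix marker was at 0 in every library, and Lum and Fap were at 0 in NK replicates 1 and 2. Summed levels of 10 group 1 lymphoid markers were 5671 to 9097 CPM in the NK libraries and 4580 to 5324 CPM in the ILC1 libraries. The values of the respiratory chain genes are therefore given library by library, with and without the libraries that stood apart.

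Several mitochondrially encoded subunits have near-identical copies on chromosome 1, which bears on every count given for them. GENCODE M21 on GRCm38 places 7 unprocessed pseudogenes in 1 block at chr1:24611535-24616197 on the minus strand, in the order of the genes they resemble on the mitochondrial genome. Gm28661, Gm10925, Gm28437 and Gm10222 were identical to mt-Co2 over 681 bases, to mt-Atp6 over 678, to mt-Co3 over 783 and to mt-Nd4l over 294 bases. Gm28439 was identical to the first 876 bases of mt-Nd4, and Gm28438 differed from mt-Nd3 at 1 of 345 bases. Gm29216 matched the last 492 bases of mt-Co1 (bases 1054 to 1545) with 6 differences, an identity of 98.78%. A set of 3 pairs is printed to show what a 50-base read can and cannot tell apart, each as the first 60 shared bases in the sense direction, with differing bases in capitals.

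mt-Co1, chrM:6381-6440, plus strand: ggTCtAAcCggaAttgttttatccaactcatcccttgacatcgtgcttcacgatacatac
Gm29216, chr1:24616138-24616197, minus strand: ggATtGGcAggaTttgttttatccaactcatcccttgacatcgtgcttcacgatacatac
mt-Co2, chrM:7013-7072, plus strand: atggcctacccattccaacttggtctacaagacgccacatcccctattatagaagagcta
Gm28661, chr1:24615506-24615565, minus strand: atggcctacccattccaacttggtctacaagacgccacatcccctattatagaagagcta
mt-Nd3, chrM:9459-9518, plus strand: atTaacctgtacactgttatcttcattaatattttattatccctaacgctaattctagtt
Gm28438, chr1:24613060-24613119, minus strand: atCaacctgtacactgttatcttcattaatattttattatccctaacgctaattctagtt

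Counted from the first base of each mitochondrial gene, the mt-Co1 pair differed at T1056A, C1057T, A1059G, A1060G, C1062A and A1066T, with the mitochondrial base first, and the mt-Nd3 pair at T3C. The differences lay close to the edge of each block, so that most 50-base stretches inside it are the same in both places. When every 50-base window of each gene was looked up in all other annotated transcripts, the share found elsewhere was 100% for mt-Co2, 99.9% for mt-Co3, 99.5% for mt-Atp6, 98.8% for mt-Nd4l and 98% for mt-Nd3. It was 62.2% for mt-Nd4 and 51.1% for mt-Co1, 8.2% for mt-Nd2 and 7.6% for mt-Nd5. No window of mt-Nd1, mt-Cytb, mt-Nd6 or mt-Atp8 was found elsewhere. The way the authors counted reads with several matches is not stated in the labels read here.

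The order of levels among the mitochondrially encoded subunits followed this division only in part. Per kilobase of exon, mt-Co1, the catalytic subunit of complex IV, stood at 8456 CPM, mt-Cytb, the cytochrome b of complex III, at 2723, and mt-Nd1, a membrane-arm subunit of complex I, at 2208. Then came the complex I subunits mt-Nd4 at 880.1, mt-Nd2 at 855 and mt-Nd5 at 758 CPM per kilobase. These neighbours differed by less than their spread over libraries, which was a coefficient of variation of 23.0%, 21.3% and 13.7%. The complex I subunit mt-Nd6, which is encoded on the opposite strand, stood at 344 CPM per kilobase. The 5 genes with over 90% shared windows lay far lower: mt-Co2 stood at 85.8, mt-Atp6 at 54.3, mt-Co3 at 40.9, mt-Nd4l at 8.81 and mt-Nd3 at 6.49 CPM per kilobase. mt-Atp8, with no shared window, was also low at 11.0 CPM per kilobase. It is 204 bases long and overlaps mt-Atp6 by 43 bases, and mt-Nd4l overlaps mt-Nd4 by 7. How shared and overlapping reads were counted bears on the levels of these 6 genes and was not tested.

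**Figure D1:**
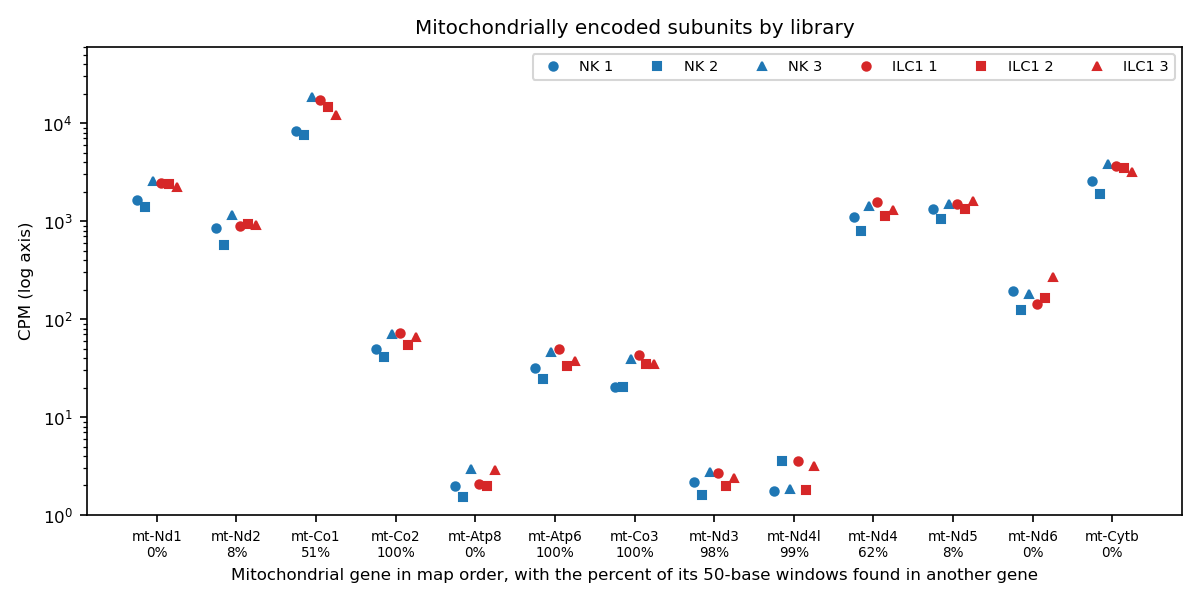
CPM on a log axis for the 13 mitochondrially encoded subunits, 1 point per library (blue NK, red ILC1, marker shape for the replicate), with the percent of 50-base windows shared with another gene under each name. mt-Co1 lies between 7555 and 18505 CPM, while the 5 genes with over 90% shared windows lie at or below 71.9 CPM in every library.

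The level of mt-Co1 was 8405, 7555 and 18505 CPM in NK replicates 1 to 3 and 17306, 14622 and 11994 CPM in ILC1 replicates 1 to 3. The groups overlapped, since NK replicate 3 was the highest of the 6 libraries. The fitted log2 fold change, ILC1 minus NK, was 0.35 ± 0.38 (SE; adjusted p = 0.691, edgeR). mt-Cytb followed the same order of libraries at the extremes: 2587, 1901 and 3829 CPM in NK cells and 3693, 3491 and 3189.95 CPM in ILC1s, with a log2 fold change of 0.32 ± 0.27 (adjusted p = 0.608, edgeR). mt-Nd1 read 1636, 1383 and 2585 CPM in NK cells and 2445, 2421 and 2211 CPM in ILC1s. In these 3 genes each matrix-rich library was higher than each of the other 3 libraries, a pattern found in that direction at 21.5% of all genes tested.

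The other complex I genes of the mitochondrial genome did not separate the libraries in either way. mt-Nd2 read 848, 576 and 1164 CPM in NK cells and 889.5, 931 and 919 CPM in ILC1s. mt-Nd5 was the steadiest of the 13 genes, at 1321, 1057 and 1501 CPM in NK cells and 1480.1, 1343 and 1594 CPM in ILC1s. mt-Nd6 was highest in ILC1 replicate 3, at 193, 124 and 179 CPM in NK cells and 142, 165 and 268 CPM in ILC1s. Relative to the other 3 libraries, the mean of the matrix-rich libraries was 1.80 times as high for mt-Co1, 1.43 for mt-Cytb, 1.42 for mt-Nd1, 1.09 for mt-Nd5 and 0.831 for mt-Nd6. The ratio was above 1 in 11 of the 13 genes. NK replicate 2 was the lowest library for 11 of them.

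Across the 13 mitochondrially encoded subunits all log2 fold changes were positive, from 0.08 for mt-Nd2 to 0.49 for mt-Co3, with a median of 0.25. Over all genes tested the median was 0.08, and 56% of genes were positive. None of the 13 passed the test or separated the groups without overlap, and the lowest adjusted p was 0.480 (edgeR). The sign depended on the libraries set against each other. With ILC1 replicates 1 and 2 against NK replicate 3 alone, 12 of the 13 were negative and the median was -0.20. In that fit the lone NK library is assumed to vary like the ILC1 pair.

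Taken as a sum, the chromosome 1 copies of the most shared genes carried at least as many counts as the genes themselves, and their share differed between libraries. Summed over the 5 pairs with over 90% shared windows, the copies held 1.09, 1.09 and 1.93 times the counts of the mitochondrial genes in NK replicates 1 to 3 and 1.82, 1.97 and 1.00 times in ILC1 replicates 1 to 3. The 3 matrix-rich libraries thus stood above the other 3, and NK and ILC1 libraries overlapped. For the mt-Co2 pair, NK replicates 1 to 3 held 995, 794 and 1473 counts on the gene and 531, 409 and 1722 on Gm28661. ILC1 replicates 1 to 3 held 1293, 1117 and 1122 counts on the gene and 1364, 1466 and 527 on Gm28661. Gm28661 thus exceeded mt-Co2 in the matrix-rich libraries and reached 0.470 to 0.534 of it in the others.

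**Figure D2:**
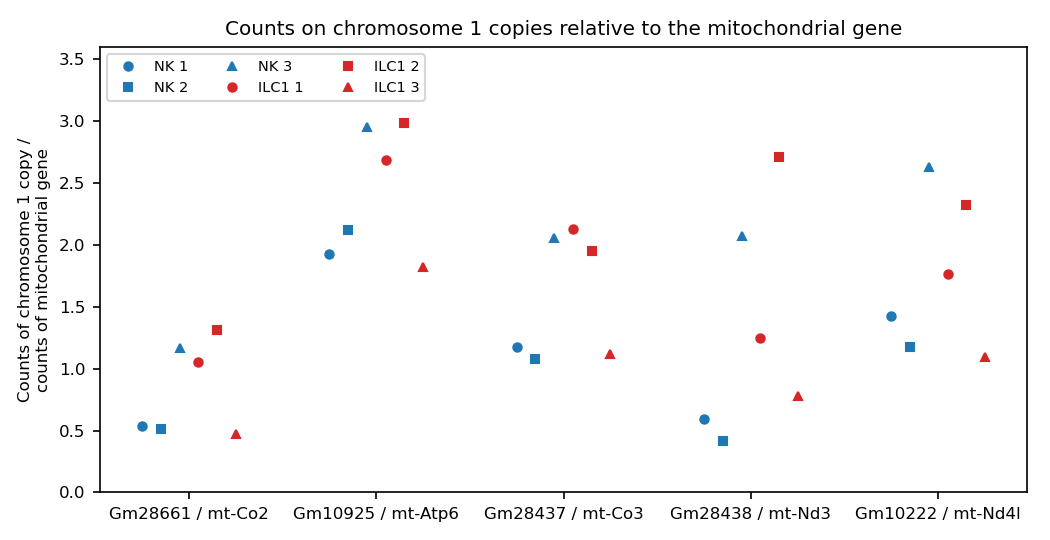
Counts assigned to a chromosome 1 copy divided by the counts assigned to the matching mitochondrial gene, 1 point per library, for the 5 pairs with over 90% shared windows. The matrix-rich libraries NK 3, ILC1 1 and ILC1 2 lie above the other 3 in each pair, for Gm28661 over mt-Co2 at 1.05 to 1.31 against 0.470 to 0.534.

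In CPM, the mean of the matrix-rich libraries over that of the other 3 was 1.50 to 3.77 for the 7 copies, with a median of 2.51, and 0.831 to 1.80 for the mitochondrial genes, with a median of 1.27. For Gm29216, which differs from mt-Co1 at 6 bases, the ratio was 2.51, against 1.80 for mt-Co1. Between the cell types, the copies had log2 fold changes of 0.12 for Gm28439 to 0.64 for Gm28437, and none passed the test. When the counts of the copies were added to their genes, an alternative chosen after the data were seen, the median of the 13 moved from 0.25 to 0.27. The largest moves were in mt-Nd3, from 0.11 to 0.32, in mt-Co3, from 0.49 to 0.59, and in mt-Co2, from 0.25 to 0.34. The part that matrix or other marked cells have in these differences was not tested.

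Nuclear and mitochondrial subunits did not follow the same order of libraries. The summed CPM of the 13 mitochondrial genes over that of the 77 nuclear subunits was 1.89, 1.40 and 4.09 in NK replicates 1 to 3 and 3.72, 2.76 and 1.87 in ILC1 replicates 1 to 3. The means were 2.46 ± 1.43 in NK cells and 2.78 ± 0.925 in ILC1s (SD, n = 3). The groups overlapped over almost the whole range, and the 3 matrix-rich libraries held the 3 highest ratios. Such a ratio is taken within a library and does not depend on how library sizes are scaled. mt-Co1 made up 57.0% ± 5.63 of the mitochondrial sum in NK cells and 59.4% ± 3.56 in ILC1s (SD, n = 3). Without it the ratio was 0.909, 0.617 and 1.51 in NK cells and 1.40, 1.095 and 0.830 in ILC1s, in which the matrix-rich libraries again held the 3 highest values.

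By complex, the same ratio for complex IV was 6.08, 4.47 and 14.3 in NK replicates 1 to 3 and 13.02, 9.05 and 5.51 in ILC1 replicates 1 to 3. For complex III, with mt-Cytb as its only mitochondrial gene, it was 3.19, 2.01 and 5.80 in NK cells and 5.55, 4.35 and 2.87 in ILC1s. For complex I it was 2.74, 1.83 and 4.19 in NK cells and 3.79, 2.94 and 2.35 in ILC1s. In each of these complexes the matrix-rich libraries held the 3 highest values and ILC1s and NK cells overlapped. For complex V, whose mitochondrial subunits mt-Atp6 and mt-Atp8 were both counted at low levels, the ratio stayed between 0.00601 and 0.0157, in the same order of library sets.

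The per-library medians show both genomes side by side. Each gene was set against its own mean over the 6 libraries on the scale of log2(CPM + 0.1), and the median of these deviations was taken. For the 77 nuclear subunits it was -0.11, 0.13 and -0.26 in NK replicates 1 to 3 and -0.24, 0.04 and 0.45 in ILC1 replicates 1 to 3. For the 13 mitochondrial genes it was -0.19, -0.57 and 0.33 in NK cells and 0.29, -0.07 and 0.12 in ILC1s. NK replicate 3 and ILC1 replicate 1 were thus low for nuclear and high for mitochondrial subunits, and NK replicate 2 was the reverse. The nuclear pattern held in each complex: ILC1 replicate 3 was highest at 0.43 for complex I, 0.39 for complex II, 0.53 for complex III, 0.48 for complex IV and 0.46 for complex V.

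**Figure D3:**
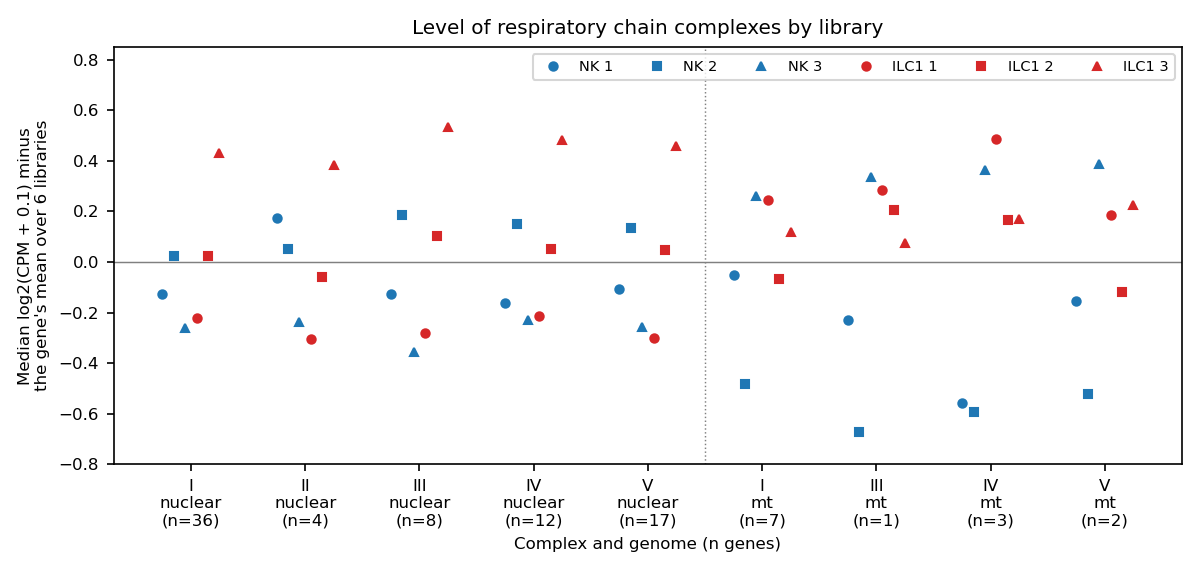
Median deviation of log2(CPM + 0.1) from the mean of each gene over the 6 libraries, by complex and by genome, 1 point per library, with the number of genes under each name. ILC1 3 is the highest library in all 5 nuclear sets, at 0.39 to 0.53, while NK 2 is the lowest in all 4 mitochondrial sets.

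ILC1 replicate 3 was the highest library for 64 of the 77 nuclear subunits (83.1%) and for 2 of the 13 mitochondrial genes (15.4%). Over all genes tested the share was 24.8%. The TMM scaling factor of ILC1 replicate 3 was 0.854, against 0.988 to 1.066 in the others, which raised its CPM. With TMM the summed nuclear level was 11575.5 CPM there and 7173 to 9589 CPM in the others. Without it the sums were 9889 and 7647 to 9470 CPM. ILC1 replicate 3 is the library with the high macrophage markers. Summed T cell markers were also highest there, at 213 CPM against 56.1 to 77.5 CPM, with 7 of 8 highest in it. Summed tumour epithelial markers were 387 against 17.3 to 112 CPM, but only 3 of 6 tested were highest in it. Summed neutrophil markers were 52.4 against 5.33 to 23.4 CPM, but only 1 of 4 tested was highest in it. The part of these cells in the result was not tested. NK replicate 3 was the lowest library for 32 nuclear subunits and ILC1 replicate 1 for 25. Of the 77, 21 were lower in each matrix-rich library than in each other library, against 11.9% of all genes, and 0 were higher. Other gene groups showed the pattern too: ILC1 replicate 3 was highest for 12 of 14 carriers and pores of the mitochondrial membranes (85.7%), 43 of 77 mitochondrial ribosomal protein genes (55.8%), 8 of 18 tricarboxylic acid cycle genes (44.4%) and 33 of 83 cytosolic ribosomal protein genes (39.8%).

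Between the cell types, 0 of the 103 genes passed the test at an adjusted p of 0.05 (edgeR), where 0.076% of all genes were higher in ILC1s, 0.00691% lower and 0.0829% in either direction. At an unadjusted p under 0.05, 8 were higher and 1 was lower in ILC1s, against 6.95% and 8.82% of all genes. DESeq2 called 1 member higher, Ndufs5, against 2.98% of all genes, and limma-voom called 0. In 11 members every ILC1 library was above every NK library, against 12.5% of all genes, and in 3 every ILC1 library was below, against 13.3%. The 14 together compare with 25.8%. These shares lie near or below the background. The median log2 fold change of the nuclear subunits was 0.22, with 63 of 77 positive, beside 0.08 and 56% over all genes. Without ILC1 replicate 3 the median was -0.03, with 35 positive and 42 negative. Among the matrix-rich libraries alone, which also leave out ILC1 replicate 3 and hold 1 NK library, it was 0.14, with 60 positive. The direction of the nuclear set thus depended on which libraries were compared. The medians stayed positive under the other scalings tried.

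**Figure D4:**
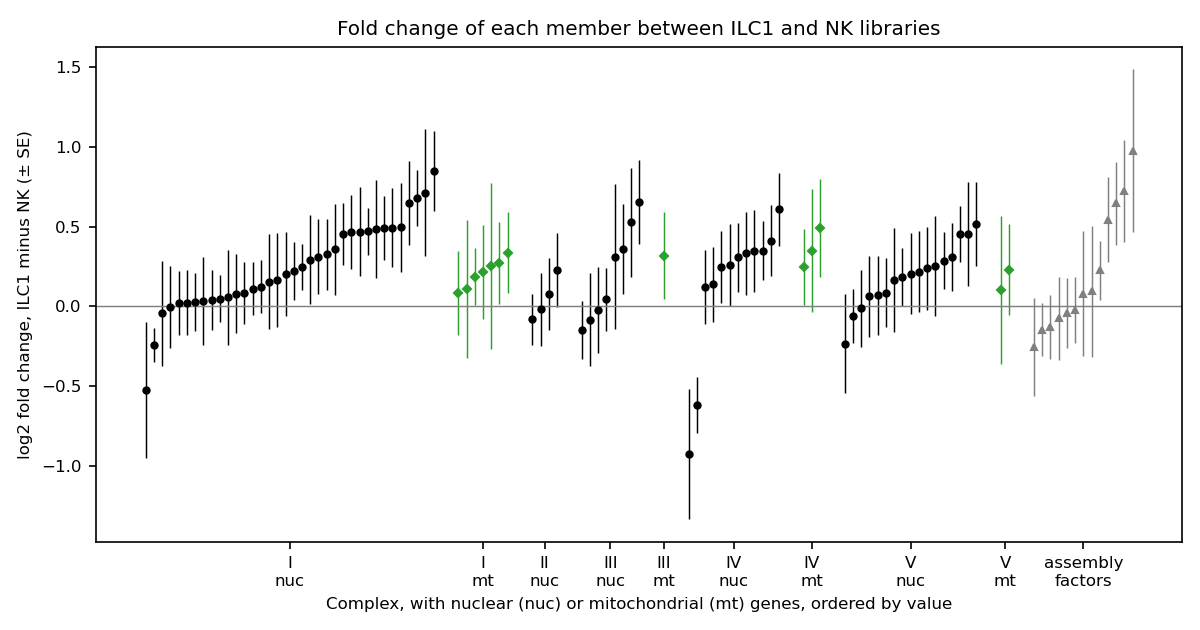
Log2 fold change (ILC1 minus NK) with its SE for each of the 103 genes, by complex, with nuclear subunits in black, mitochondrial subunits in green and assembly factors in grey, ordered by value within a set. The 13 mitochondrial genes lie between 0.08 and 0.49, and Cox6a2 and Ndufa4 of complex IV stand lowest at -0.93 and -0.62.

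Complex I held 36 nuclear subunits with a median log2 fold change of 0.21, and 32 of them were positive. The 7 core subunits, which carry the flavin and the iron-sulphur clusters, had a median of 0.11, and the 29 accessory subunits, which surround the core, one of 0.31. Without ILC1 replicate 3 these medians were -0.09 and 0.09, and that of all 36 was 0.01. Of the 8 nuclear subunits that were higher in ILC1s without overlap, 6 were among the 29 accessory subunits of this complex (Ndufs5, Ndufb9, Ndufab1, Ndufa11, Ndufa12 and Ndufb4), where 12.5% of all genes were higher in this way. Ndufs5 (chr4:123712710-123718202, minus strand) encodes an accessory subunit of the membrane arm. It read 22.2, 16.6 and 20.7 CPM in NK cells and 28.5, 32.9 and 33.9 CPM in ILC1s. The smallest gap between the groups was 6.21 CPM, and the log2 fold change of 0.68 ± 0.18 had the lowest adjusted p among the members (0.188, edgeR). It was 0.62 without ILC1 replicate 3 and 0.69 with DESeq2, and 21.7% of the 50-base windows of Ndufs5 were found in another gene, for the most part a processed pseudogene.

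Ndufb9 (chr15:58933756-58939488, plus strand), also in the membrane arm, read 11.0, 12.4 and 14.5 CPM in NK cells and 16.7, 24.3 and 27.4 CPM in ILC1s. Its log2 fold change was 0.85 ± 0.25 (adjusted p = 0.228, edgeR). Ndufab1 (chr7:122085403-122101886, minus strand) encodes the mitochondrial acyl carrier protein, which serves both complex I and mitochondrial fatty acid synthesis. It read 31.1, 31.3 and 27.3 CPM in NK cells and 36.3, 45.4 and 42.5 CPM in ILC1s, a log2 fold change of 0.47 ± 0.15 (adjusted p = 0.247, edgeR). In all 3 genes the lowest ILC1 library was replicate 1 and no NK library reached it. Ndufa11, a further membrane-arm subunit, read 18.8, 18.9 and 20.4 CPM in NK cells and 21.1, 27.9 and 32.6 CPM in ILC1s, with a gap of 0.730 CPM.

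Among the core subunits, Ndufs1 (chr1:63143596-63176833, minus strand), the largest iron-sulphur protein of the complex, went the other way. It read 72.3, 72.1 and 70.1 CPM in NK cells and 58.0, 60.1 and 63.4 CPM in ILC1s. The spread within each group was small and the groups did not overlap. Its log2 fold change was -0.24 ± 0.10 (adjusted p = 0.334, edgeR), and -0.29 without ILC1 replicate 3. The flavoprotein Ndufv1, which binds NADH, read 99.3, 108 and 77.9 CPM in NK cells and 95.8, 99.6 and 115 CPM in ILC1s. The groups overlapped. Ndufa1 had the highest level of the nuclear complex I genes per length, at 102 CPM per kilobase.

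The 4 subunits of complex II, all nuclear, had a median log2 fold change of 0.03, and of -0.18 without ILC1 replicate 3. Sdha, the flavoprotein that oxidises succinate, read 231, 209 and 182 CPM in NK cells and 184, 178 and 226 CPM in ILC1s. Sdhb, its iron-sulphur partner, lay at -0.02 ± 0.23 on the log2 scale, and the membrane anchors Sdhc and Sdhd at 0.23 ± 0.23 and 0.08 ± 0.22. No complex II gene separated the groups. Of the 4, 3 were lower in each matrix-rich library than in each other library, beside 11.9% of all genes.

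In complex III the 8 nuclear subunits had a median of 0.18, which was -0.13 without ILC1 replicate 3. The large core proteins Uqcrc1 and Uqcrc2 and the Rieske protein Uqcrfs1, which carries the iron-sulphur cluster, lay at -0.08 ± 0.29, -0.15 ± 0.18 and -0.02 ± 0.27. Of the small subunits, Uqcrb lay at 0.65 ± 0.26, Uqcr10 at 0.53 ± 0.34, Uqcrq at 0.36 ± 0.28, Uqcr11 at 0.31 ± 0.45 and Uqcrh at 0.04 ± 0.20. Without ILC1 replicate 3 these values were 0.35, 0.29, 0.11, -0.15 and -0.11. Uqcrb read 39.9, 34.1 and 43.5 CPM in NK cells and 42.6, 58.5 and 83.6 CPM in ILC1s, with overlap through ILC1 replicate 1. Of the sequence windows of Uqcrb that were looked up, 25.5% were found in another gene. Uqcrh, the hinge protein, had the highest level per length at 138 CPM per kilobase. Cyc1, outside the naming rule, had a log2 fold change of -0.07 ± 0.20.

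Complex IV had the members with the lowest fold changes. Ndufa4 (chr6:11900292-11907497, minus strand) was first assigned to complex I and is now placed with complex IV. It read 69.5, 75.7 and 52.1 CPM in NK cells and 39.2, 46.0 and 43.5 CPM in ILC1s. Every ILC1 library was below every NK library, by at least 6.12 CPM, and none of its 50-base windows was found in another gene. The log2 fold change was -0.62 ± 0.17 (adjusted p = 0.215, edgeR), -0.63 without ILC1 replicate 3 and -0.33 among the matrix-rich libraries alone. AA467197, named after its values were seen, encodes a paralog of Ndufa4 known to take its place in complex IV during inflammation. It read 11.4, 13.4 and 23.0 CPM in NK cells and 51.2, 62.0 and 363 CPM in ILC1s. The libraries did not overlap, and the log2 fold change was 3.31 ± 0.90 (adjusted p = 0.211, edgeR), with the highest value in the library with high macrophage markers. Without that library it was 1.81. Both genes thus separated the groups in opposite directions, and neither passed the test.

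Cox5a (chr9:57521274-57532426, plus strand) encodes an early-assembling matrix-side subunit. Among complex IV members, which have a mean of at least 1 CPM, it was the 1 gene with all ILC1 libraries above all NK libraries. It read 55.3, 74.4 and 54.1 CPM in NK cells and 81.8, 77.6 and 121 CPM in ILC1s, a log2 fold change of 0.61 ± 0.23 (adjusted p = 0.297, edgeR) that was 0.37 without ILC1 replicate 3. Its partner Cox5b lay at 0.25 ± 0.22 and Cox4i1, the ubiquitous form of subunit 4, at 0.14 ± 0.23. Cox8a had the highest level per length of all nuclear subunits, 412 CPM per kilobase.

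Tissue-specific forms of complex IV subunits were scarce. Cox6a2, the heart and muscle form, read 4.04, 3.95 and 3.21 CPM in NK cells and 2.06, 2.38 and 1.45 CPM in ILC1s (log2 fold change -0.93 ± 0.41, adjusted p = 0.339, edgeR), without overlap. The liver-type form Cox6a1 read 113 to 170.1 CPM in NK cells and 139 to 226 CPM in ILC1s. Cox4i2, a form known from lung and from hypoxic cells, was at most 0.111 CPM in 5 libraries and 4.23 CPM in ILC1 replicate 3. Cox7a1, Cox6b2, Cox8b and Ndufa4l2 also stood below a mean of 1 CPM. Of these, only Cox7a1 entered the test. It read 0, 0 and 0.576 CPM in NK cells and 0.945, 0.973 and 2.37 CPM in ILC1s, without overlap. Its log2 fold change was 2.84 ± 1.60 (adjusted p = 0.436, edgeR). A count of 0 in a library allows up to 3 counts, which is 0.144 to 0.174 CPM here.

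**Figure D5:**
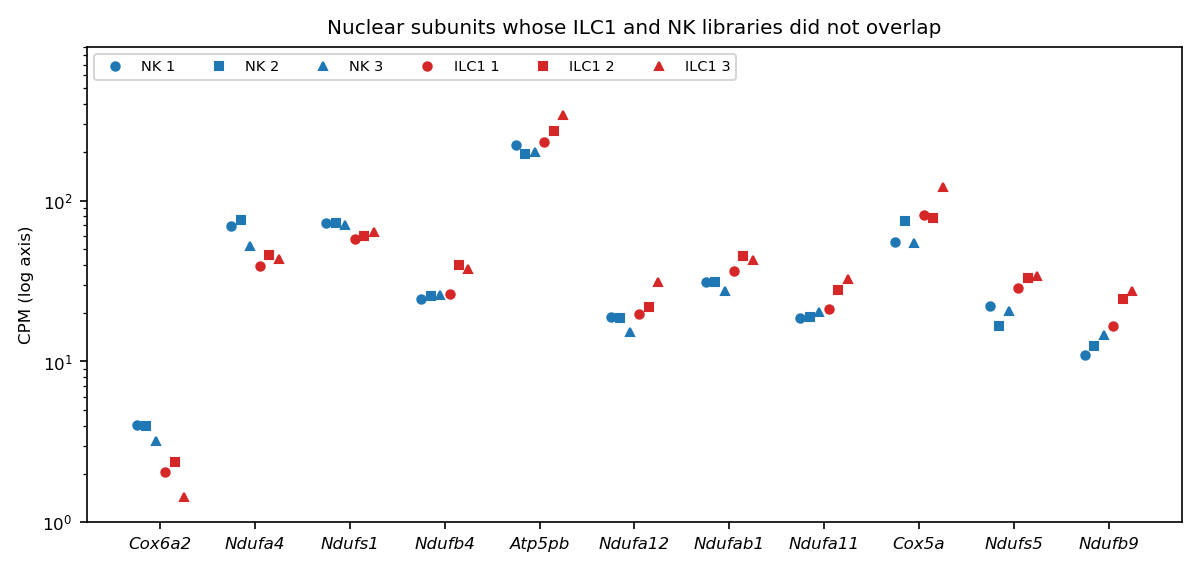
CPM on a log axis for the 11 nuclear subunits whose ILC1 and NK libraries did not overlap, ordered by log2 fold change, 1 point per library. Cox6a2, Ndufa4 and Ndufs1 are lower in all 3 ILC1 libraries and the other 8 are higher.

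Complex V held 17 nuclear subunits with a median log2 fold change of 0.20, which was -0.05 without ILC1 replicate 3. The 5 genes of the catalytic F1 part had a median of 0.07: Atp5d lay at -0.23 ± 0.31, Atp5a1 at -0.06 ± 0.17, Atp5c1 at 0.07 ± 0.25, Atp5b at 0.09 ± 0.22 and Atp5e at 0.17 ± 0.32. The other 12 genes, of the stalk and membrane part, had a median of 0.25. Without ILC1 replicate 3 these medians were -0.19 and 0.05. Atp5pb, subunit b of the peripheral stalk, read 221, 194 and 201 CPM in NK cells and 232, 269 and 342 CPM in ILC1s. The groups were separated by 10.9 CPM at the closest, with a log2 fold change of 0.45 ± 0.18 (adjusted p = 0.306, edgeR) that was 0.28 without ILC1 replicate 3. Subunit c, which forms the rotor ring, is encoded by Atp5g1, Atp5g2 and Atp5g3 with the same mature protein. Per length, Atp5g1 gave 5.69% to 8.67% of their sum, Atp5g2 44.4% to 50.6% and Atp5g3 42.2% to 47.0%. These shares depend on annotated exon lengths of 4912, 1675 and 2181 bases. Not divided by length, the 3 genes had means of 74.5, 169 and 210 CPM. Of the 50-base windows of Atp5g2, 38.3% were found in another gene. The shares of NK and ILC1 libraries overlapped for all 3 genes.

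The 13 assembly and supercomplex factors had a median log2 fold change of 0.08, with 7 positive. Without ILC1 replicate 3 the median was -0.10. Of the 13, 3 were higher in all ILC1 libraries, beside 12.5% of all genes. Ndufaf2, a complex I assembly chaperone, read 6.63, 5.49 and 5.61 CPM in NK cells and 8.06, 9.97 and 9.72 CPM in ILC1s (log2 fold change 0.65 ± 0.26, adjusted p = 0.312, edgeR). Ndufaf5, a methyltransferase-like factor for the same complex, lay at 0.54 ± 0.27, and Sdhaf3, which serves maturation of the iron-sulphur subunit of complex II, at 0.72 ± 0.32. All 3 were expressed at low levels. Of the sequence windows of Ndufaf2 that were looked up, 64.1% were found in another gene, whereas none of Ndufaf5 or Sdhaf3 was. How shared reads bear on the level of Ndufaf2 was not tested. Cox7a2l, a supercomplex factor, read 188 to 267 CPM in NK cells and 189 to 258 CPM in ILC1s.

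Promoters of nuclear subunits are known for sites of NRF1, ETS factors such as GABP, and YY1. RefSeq windows of 300 bases on GRCm38.p6 were matched for 64 of the 77 nuclear subunits and searched on both strands for GCATGCGC (NRF1), CCGGAAGT (ETS) and AAGATGGCG (YY1). The NRF1 letters were in at least 1 window of 10 of 64 genes (15.6%), against 3.9% of 17492 protein-coding genes. The YY1 letters were in 7 (10.9%), against 2.1%, and the ETS letters in 5 (7.8%), against 5.7%. A gene can have several windows, and their number was not adjusted for. A match is a description of these letters, not a site shown to be bound. Whether genes with the letters differed from the others across libraries was not tested. Examples follow in the direction of the gene, with the motif in capitals.

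Atp5g2 (NRF1), chr15:102671048-102671127, minus strand: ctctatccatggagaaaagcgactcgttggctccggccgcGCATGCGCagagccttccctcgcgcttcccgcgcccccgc
Sdhb (NRF1), chr4:140961182-140961261, plus strand: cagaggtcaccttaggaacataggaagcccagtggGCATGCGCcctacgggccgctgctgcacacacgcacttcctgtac
Uqcr11 (ETS), chr10:80406843-80406922, minus strand: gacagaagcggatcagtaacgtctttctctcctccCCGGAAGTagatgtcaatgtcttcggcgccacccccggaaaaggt
Atp5j (YY1), chr16:84835020-84835099, minus strand: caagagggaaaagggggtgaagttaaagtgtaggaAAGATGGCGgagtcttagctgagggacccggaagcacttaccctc

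All 4 genes overlapped between the cell types, with log2 fold changes of 0.19 for Atp5g2, -0.02 for Sdhb, 0.31 for Uqcr11 and 0.24 for Atp5j. Each was highest in ILC1 replicate 3, as were 64 of the 77 nuclear subunits.

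Genes that work beside the respiratory chain were read from lists by role, and no gene of these lists passed the test (edgeR). Among 32 genes of mitochondrial DNA maintenance, transcription and RNA stability, the median log2 fold change was -0.02, with 15 positive and 17 negative. At an unadjusted p under 0.05, 3 were lower and 0 higher, beside 8.82% and 6.95% of all genes, and DESeq2 called 2 lower, beside 4.04%. Without overlap, 5 were lower and 3 higher, beside 13.3% and 12.5% of all genes. Polg, the catalytic subunit of the mitochondrial DNA polymerase, read 75.4, 87.6 and 69.4 CPM in NK cells and 48.5, 45.4 and 49.3 CPM in ILC1s. Its log2 fold change was -0.70 ± 0.13 (adjusted p = 0.127, edgeR). Polg2, the accessory subunit of the same enzyme, read 14.3, 14.8 and 14.2 CPM in NK cells and 8.56, 7.01 and 7.003 CPM in ILC1s, at -0.94 ± 0.21 (adjusted p = 0.156, edgeR). In both genes the ILC1 libraries lay close together below all NK libraries, and the values without ILC1 replicate 3 were -0.73 and -0.90. Angel2, of the same list, lay at -0.39 ± 0.12, without overlap.

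Among 10 regulators of nuclear respiratory genes the median log2 fold change was -0.05, with 4 positive and 6 negative. Tfdp1 and Pprc1 lay at 0.59 ± 0.25 and 0.37 ± 0.26, both with overlap. Nrf1 read 56.7, 60.4 and 43.8 CPM in NK cells and 42.5, 37.8 and 44.2 CPM in ILC1s, with overlap through NK replicate 3. Ppargc1a, the coactivator PGC-1α, was scarce, at 2.29, 1.08 and 4.61 CPM in NK cells and 0.500, 1.07 and 0 CPM in ILC1s. Among 16 electron carriers and quinone-linked genes 6 were higher in ILC1s without overlap, beside 12.5% of all genes, among them cytochrome c (Cycs), at 77.7, 74.6 and 85.9 CPM in NK cells and 86.8, 109 and 130.2 CPM in ILC1s, and Coq3, a methyltransferase of ubiquinone synthesis, at 0.90 ± 0.31. The 39 assembly factors outside the naming rule had a median of 0.02, with 3 higher and 0 lower at an unadjusted p under 0.05, beside 6.95% and 8.82% of all genes.

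Among 14 carriers and pores of the mitochondrial membranes the median log2 fold change was 0.29, and DESeq2 called 3 higher, beside 2.98% of all genes. Vdac1, the main pore of the outer membrane, read 143, 141 and 189 CPM in NK cells and 223, 265 and 311 CPM in ILC1s, a log2 fold change of 0.75 ± 0.19 (adjusted p = 0.186, edgeR). Atpif1, the inhibitor of ATP synthase hydrolysis, read 9.43, 14.3 and 16.5 CPM in NK cells and 22.8, 28.5 and 36.4 CPM in ILC1s, at 1.12 ± 0.29 (adjusted p = 0.187, edgeR). Slc25a4, an ADP/ATP carrier, lay at 0.89 ± 0.29. These 3 genes separated the groups without overlap, and without ILC1 replicate 3 they stood at 0.61, 0.92 and 1.01. The median of the 14 genes without that library was -0.01. Among 18 tricarboxylic acid cycle genes the median was 0.09, and 0.02 without ILC1 replicate 3. Fh1, the fumarase, read 48.6, 46.7 and 45.1 CPM in NK cells and 57.1, 63.4 and 64.2 CPM in ILC1s (0.40 ± 0.11, adjusted p = 0.216, edgeR), and Idh2, the NADP-dependent isocitrate dehydrogenase, lay at 1.01 ± 0.31.

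The mitochondrial ribosome, which translates the 13 mitochondrial genes, had 77 tested protein genes with a median log2 fold change of 0.28, and 12 were higher and 1 lower at an unadjusted p under 0.05, beside 6.95% and 8.82% of all genes. Without ILC1 replicate 3 the median was 0.11. In 22 of them all ILC1 libraries were above all NK libraries, where 12.5% of all genes were. Mrpl27 read 13.7, 11.9 and 12.3 CPM in NK cells and 21.8, 22.5 and 24.5 CPM in ILC1s, at 0.86 ± 0.17 (adjusted p = 0.132, edgeR). Cytosolic ribosomal protein genes had a median of 0.17 over 83 genes. Summed levels of 18 proliferation genes were 1249, 1226 and 1693 CPM in NK cells and 2350.4, 2574 and 1170.2 CPM in ILC1s, highest in the 3 matrix-rich libraries, as were mt-Co1, mt-Cytb and mt-Nd1. Its part in the result was not tested.

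Among the matrix-rich libraries alone, 4 nuclear subunits passed the test as higher in ILC1s, and 0 as lower, beside 6.13% and 6% of all 15589 genes tested there. They were Ndufs5 (0.52), Ndufab1 (0.54), Cox5a (0.52) and Uqcr10 (0.61, all log2 fold changes). The first 3 were separated without overlap over the 6 libraries. Those include the matrix-rich ones, so the direction of these genes here was already given and is no separate support. This fit has 1 NK library, whose spread is assumed to be that of the ILC1 pair. Of the 77 nuclear subunits, 60 were positive in it, with a median of 0.14, while the mitochondrial median was -0.20.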

How the data were processed

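RNA from 3 ILC1 and 3 NK samples was selected with oligo(dT) beads, reverse transcribed from random hexamers and read as single 50-base reads, per the labels' protocols. The authors deposited raw counts per gene symbol. Per the submitters' processing notes, the tools include HISAT2 2.1.0 and featureCounts 2.0.1, with GRCm38 as the build. Which annotation release and strand setting they used, and what was done with reads in overlapping genes or with several matches, is not given in the sources read here. Antisense and copied genes may therefore share or lose counts, and PCR copies are included. Poly(A) selection can leave out transcripts with short or no tails.

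From these deposited counts, CPM were obtained on TMM-scaled library sizes. Means are ± SD over 3 libraries. The test was edgeR 4.0.16 in R 4.3.3 on all 6 libraries: filterByExpr (14475 genes), robust quasi-likelihood fits on cell type without further terms, and a Benjamini-Hochberg threshold of 0.05 over all genes. The scripts were tested on simulated data. Levels per kilobase use the union of annotated exons in GENCODE M21, which held no entry for 2 members (Atp5pb, Atp5md). Positions are 1-based. Shared windows were counted by looking up every 50-base stretch of the transcripts of a gene, on both strands, in those of all other genes.

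The members, gene lists and library sets were chosen with earlier results of these data known. The text names all mitochondrial genes, well-known core subunits, isoform sets, per complex the gene with the highest level per length and the 3 with the smallest p, members whose groups did not overlap, 3 assembly factors, up to 4 genes per pathway list by p, and up to 2 genes per marker list by level. Some genes that the rule names are left out for length. Medians over a list are descriptions without a test. The library pairs held no library deposited more than once. Alternatives were other scalings (RLE, upper quartile, TMM without mitochondrial rows), leaving out the filter on low counts, a minimum mean of 5 CPM, DESeq2 1.42.0, limma-voom (limma 3.58.1), a replicate block, a term for library sets, the matrix-rich libraries alone and each library left out in turn. Promoter motifs were shortened after a first search with longer letters, which matched fewer members and fewer of all protein-coding genes.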

Additional observations from a re-analysis of the deposited data

How the results depend on the processing

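At 16931099 to 20224847 counts per library, 3 counts equal 0.144 to 0.174 CPM, which limits statements on the rare isoforms, and 3 libraries per group with a common dispersion of 0.352 limit the rest. Members past the edgeR test numbered 0 in each direction under RLE and upper-quartile scaling, TMM without mitochondrial rows, both other filters, the term for library sets and each library left out. DESeq2 called 1 higher, and the fit of the 3 matrix-rich libraries alone called 4 higher. Over all genes, 11 were higher and 1 lower. The counts were 47 and 91 with no low-count filter, 432 and 585 with DESeq2, and 956 and 935 in the matrix-rich libraries alone. The lower count was 2 at a minimum of 5 CPM and with limma-voom, and 17 with a term for library sets. In either direction limma-voom called 18 genes. The higher counts at a minimum of 5 CPM and with the term for library sets are not given here. Leaving out 1 library at a time gave 0 to 250 higher and 0 to 199 lower genes, both largest without NK replicate 3, and 0 members in either direction.

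The nuclear median ran from -0.03 (without ILC1 replicate 3) to 0.37 and the mitochondrial median from 0.08 (without NK replicate 2) to 0.50 (without NK replicate 3) with 1 library left out. The mitochondrial median was -0.16 with the term for library sets and -0.20 in the matrix-rich libraries alone. The term sets apart NK replicates 1 and 2, the matrix-rich libraries, and ILC1 replicate 3. Both fits therefore rest on ILC1 replicates 1 and 2 against NK replicate 3. Why the medians move was not tested. Leaving out mt-Nd6, mt-Atp8 and mt-Nd4l gave 0.26, and counting assembly factors in gave 0.20 for the nuclear set. After the data were seen, the copies on chromosome 1 were added (0.27), or genes with over 90% shared windows left out (0.24). Of 52 named members, 27 changed sign in some alternative, none with a log2 fold change beyond 0.49 in size.

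The labels do not say that replicate numbers pair samples, and same-numbered samples deviated in opposite directions (correlations of -0.36, -0.36 and -0.56). With the replicate block, 0 genes were higher and 0 lower, 0 members passed, and the medians were 0.19 (nuclear) and 0.28 (mitochondrial).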
